A study of Mus musculus with 6 samples.

Results

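The sodium and plasma membrane calcium pumps considered here are 6 genes, chosen by name: the sodium pump beta subunits Atp1b1, Atp1b2 and Atp1b3 and the plasma membrane calcium pumps Atp2b1, Atp2b2 and Atp2b4. A match to the gene symbols found 5 of the 6 among the 13931 genes measured, and Atp2b2 was not analysed here. RNA-sequencing measured their transcripts in whole lenses of mice at birth (P0), in 3 libraries from Control and 3 from Celf1cKO lenses, with 2 lenses pooled for each. In Celf1cKO mice, 1 copy of Celf1 was null in every tissue (Celf1lacZKI), and the other (Celf1flox) was made to lose exon 5 where the Pax6GFPCre transgene was active, which is the lens lineage from the placode onward. The labels give the Controls as Celf1lacZKI/+, which also carry a germline knockout allele, whereas the study's methods name Celf1flox mice without Cre unless otherwise noted, so the Control genotype is not settled here. The background was mixed C57BL/6 and FVB.

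The sodium pump (Na,K-ATPase) uses ATP to move sodium out of the cell and potassium in. Its alpha subunit carries out the catalysis, and a beta subunit is needed to fold the alpha subunit and bring it to the plasma membrane. Plasma membrane calcium ATPases export calcium and are activated by calmodulin. In the lens, which has no blood supply, sodium pump activity is concentrated in the epithelium and drives the ion and water circulation of the tissue, and low cytosolic calcium in the fiber cells protects them from calcium-activated proteases. Celf1 is an RNA-binding protein that binds UGU-rich sequences, often in 3′ untranslated regions (UTRs).

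Sequences that match short UGU-rich motifs were looked for in the 3′ UTRs of the 5 measured pump genes, with 1 principal transcript of GENCODE M21 on GRCm38 for each gene. The motif TGTTGT, read on the transcript strand and with overlapping matches counted, occurred 7 times in the 3′ UTR of Atp1b3, 5 times in that of Atp2b4, 2 times in that of Atp1b1 and 0 times in those of Atp1b2 and Atp2b1. The 3′ UTRs are 869 bases long in Atp1b3, 7234 in Atp2b4, 1167 in Atp1b1, 1512 in Atp1b2 and 3024 in Atp2b1. Over the first 800 bases of the 7607 3′ UTRs of measured genes that are at least that long, 29.4% held TGTTGT, and 0.118% held 7 or more matches. The cutoff of 7 is the count of Atp1b3 itself, so this share describes that gene and is not a test. The motif TGTTTGT was in 18.1% of these windows and in 0 of those of the 5 pump genes. Farther along, it occurred 3 times in the 3′ UTR of Atp2b4 and 2 times in that of Atp2b1. The windows below show the 7 matches of Atp1b3, of which 4 lie in 1 window, beside single ones of Atp1b1 and Atp2b1, with the motif in capitals, 5′ to 3′ on the transcript strand. A match is a stretch of letters, not a known binding site.
Atp1b3, chr9:96333480-96333505, minus strand: gaattcaTGTTGTGTTGTcgccattt
Atp1b3, chr9:96332922-96332947, minus strand: acaaactttcTGTTGTagtacatatt
Atp1b3, chr9:96332790-96332815, minus strand: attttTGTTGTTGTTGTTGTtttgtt
Atp1b1, chr1:164437585-164437610, minus strand: tgatgggttgTGTTGTgctccgtgct
Atp2b1, chr10:99024266-99024291, plus strand: tttgaaactTGTTTGTaaacataaat

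None of the 5 measured pump genes passed the test for a difference between Celf1cKO and Control lenses, while a fit with the replicate number as a block called 1 of them, Atp1b2, lower. The test was limma on log2 CPM (the reads of a gene relative to the scaled total of its library), with p-values adjusted by Benjamini-Hochberg over all 13931 genes, and a gene was called at an adjusted p under 0.05, a log2 fold-change beyond 0.58 and an average log2 CPM above 1. By this rule 9.68% of the 10640 genes above that average were called, 664 of them higher and 366 lower, and 0 of 5 is near this background. No member reached an unadjusted p under 0.05, which 34% of these genes did, and voom on the recovered read numbers, which called 9.89% of them, also called 0 of 5. The groups overlapped for all 5, while they did not overlap for 40% of the 10640 genes. Scaling by total reads shifted the median log2 fold-change of expressed genes to 0.23, against 0.00 with the deposited scaling, and then called 1663 genes higher of 1867 in all, again with 0 of 5 members. Celf1 itself had a log2 fold-change of -1.60 (limma adjusted p = 0.0269), and leaving out any single library other than Celf1cKO 1 raised this adjusted p above 0.05, to at most 0.108, with a log2 fold-change of -1.80 to -1.36.

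The beta subunit genes differed widely in level. Per kb of exon, the Control mean was 75.0 ± 5.66 CPM for Atp1b3, 3.84 ± 0.656 for Atp1b1 and 0.970 ± 0.724 for Atp1b2 (SD, n = 3), and Atp1b3 ranked 324 of 13924 genes on this scale. Of the calcium pumps, Atp2b1 stood at 0.747 ± 0.0423 and Atp2b4 at 0.272 ± 0.0722 CPM per kb. The order of the Control means was thus Atp1b3, Atp1b1, Atp1b2, Atp2b1 and Atp2b4. The place of Atp1b2 before Atp2b1 rests on Control 3, since Atp1b2 was below Atp2b1 in every other library. The exons of Atp2b1 and Atp2b4 are summed over all annotated transcripts and reach 15218 and 12248 bases, which lowers their values per kb.

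Atp1b3 (ENSMUSG00000032412, chr9:96332655-96364442, minus strand) encodes the beta subunit with the highest transcript level in these lenses. In log2 CPM it measured 7.52, 7.57 and 7.36 in Control 1, 2 and 3, and 7.43, 6.97 and 7.21 in the Celf1cKO libraries in the same order, from 6095 to 7380 reads. Celf1cKO 1 lay among the Controls, and the other two Celf1cKO libraries lay below them. The log2 fold-change was -0.28 (standard error 0.127, 95% interval -0.58 to 0.02, limma adjusted p = 0.187), so the interval ended just inside the fold-change threshold. With total-read scaling the log2 fold-change was -0.05. Without Celf1cKO 1 it was -0.39 (limma adjusted p = 0.0478), which is short of the fold-change threshold. The interval also ended below 0 without Control 3, with median centring and with quantile normalization (limma adjusted p = 0.191, 0.150 and 0.149).

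Atp1b1 (ENSMUSG00000026576, chr1:164437109-164458355, minus strand) encodes the widely expressed beta subunit typical of epithelia. It stood at 3.39, 3.45 and 3.83 log2 CPM in Control 1, 2 and 3, and at 3.71, 3.45 and 3.35 in the Celf1cKO libraries in the same order. The groups overlapped over most of their range on this scale, and held 400 to 557 reads in Control and 500 to 559 in Celf1cKO. The log2 fold-change was -0.05 (standard error 0.169, 95% interval -0.45 to 0.34, limma adjusted p = 0.863), and its sign turned with total-read scaling, to 0.17. Exons of Nme7, on the opposite strand, overlap 18.7% of the exon length of Atp1b1, and the strand setting of the read counting is not known here.

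Atp1b2 (ENSMUSG00000041329, chr11:69599736-69605942, minus strand) encodes the beta subunit first described as an adhesion molecule on glia, and is also a sodium pump subunit of photoreceptors. In log2 CPM it measured 1.37, 1.03 and 2.89 in Control 1, 2 and 3, and 0.64, -1.26 and 1.30 in the Celf1cKO libraries in the same order. Control 3 stood above the other two Controls, Celf1cKO 2 stood below every other library, and Celf1cKO 3 lay within the Control range. The 18 reads of Celf1cKO 2 have an exact 95% Poisson interval of 10.7 to 28.4, below the intervals of every other library, of which the lowest is 50.2 to 82.8 around 65 reads. The log2 fold-change was -1.53 (standard error 0.734, 95% interval -3.25 to 0.18, limma adjusted p = 0.206).
The same-numbered differences, Celf1cKO minus Control, were -0.73, -2.29 and -1.59 on the log2 scale. With the replicate number as a block, Atp1b2 was called lower (limma adjusted p = 0.0375, 95% interval -2.36 to -0.70), the 1 member of 5 called by that fit, which called 12% of the 10640 genes in either direction and 4.92% of them lower. Over all alternatives its adjusted p ran from 0.0375 to 0.773. Without Celf1cKO 2 the log2 fold-change was -0.79, without Control 3 it was -0.97, and without both it was -0.23.

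Atp2b1 (ENSMUSG00000019943, chr10:98914406-99026143, plus strand), the calcium pump made in nearly all cell types, spanned the narrowest range of log2 CPM of the 5. It stood at 3.59, 3.42 and 3.53 log2 CPM in Control 1, 2 and 3, and at 3.49, 3.18 and 3.32 in the Celf1cKO libraries in the same order, from 397 to 490 reads. Celf1cKO 1 lay within the Control range and the other two lay below it. The log2 fold-change was -0.18 (standard error 0.137, 95% interval -0.50 to 0.14, limma adjusted p = 0.404), an interval that ends short of the threshold of 0.58 on both sides. With total-read scaling it was 0.04.

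Atp2b4 (ENSMUSG00000026463, chr1:133699457-133801041, minus strand), the other plasma membrane calcium pump measured, varied most among Celf1cKO libraries. It stood at 1.76, 1.32 and 2.09 log2 CPM in Control 1, 2 and 3, and at 1.18, -1.19 and 1.41 in the Celf1cKO libraries in the same order. Celf1cKO 2, with 19 reads (exact 95% Poisson interval 11.4 to 29.7), was far below the other five libraries, which held 91 to 166 reads. The log2 fold-change was -1.26 (standard error 0.664, 95% interval -2.81 to 0.30, limma adjusted p = 0.247), with the block the adjusted p was 0.0901, and without Celf1cKO 2 the log2 fold-change was -0.43.

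**Figure D1:**
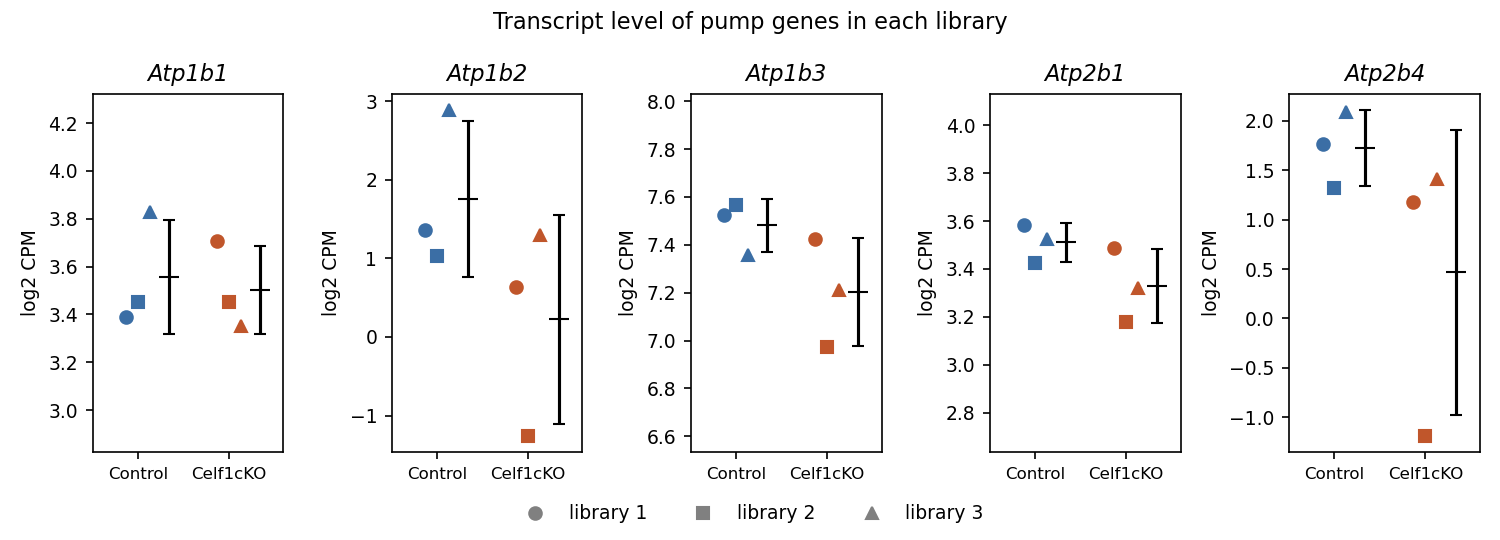
Level of each measured pump gene in log2 CPM, with 1 point per library (3 Control in blue, 3 Celf1cKO in orange, marker shape for the library number) and the mean with its SD beside each group; each panel has its own axis. The groups overlap in every panel, and Celf1cKO 2 is lowest for Atp1b2 (-1.26) and Atp2b4 (-1.19).

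The members other than Atp1b1 were lowest in Celf1cKO 2, that is 4 of 5, while Celf1cKO 2 held the lowest value for 21.5% of the 10640 genes. The same 4 were below Control in all 3 same-numbered pairs, which held for 29.3% of genes. Over the 6 libraries, the log2 CPM of Atp1b2 correlated with that of Atp2b4 at r = 0.94 (Pearson), and Atp1b1 had its highest correlation with another member, Atp1b2, at 0.44. Of 10638 genes compared, those whose levels followed each member closely included Srrd and H2az2 for Atp1b3 (r of 0.991 for each), Gm9625, Gm7160 and Nol10 for Atp1b1 (0.976 to 0.986), Nfix, Lrp5 and Rps6ka1 for Atp1b2 (0.986 to 0.991), Gjc1 and Traf4 for Atp2b1 (0.998 and 0.997) and Gpm6a, Ube2c and Hunk for Atp2b4 (0.993 to 0.998). These values describe 6 libraries that also differ in summed marker levels, and carry no test.

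The makeup of each pump family was given by the share of each gene in the summed CPM per kb of exon. Atp1b3 made up 95.0%, 95.2% and 91.5% of beta subunit transcripts in Control 1, 2 and 3, and 94.0%, 93.5% and 94.1% in the Celf1cKO libraries in the same order. The means were 93.9% ± 2.10 and 93.9% ± 0.302 (SD, n = 3), and the exact permutation test, two-sided, gave p = 1. Atp1b1 contributed 4.85% ± 1.10 in Control and 5.61% ± 0.656 in Celf1cKO (SD, n = 3). Atp1b2 contributed 1.25% ± 1.0 and 0.515% ± 0.369 (SD, n = 3), from 0.162% in Celf1cKO 2 to 2.41% in Control 3.
Among the calcium pumps, Atp2b1 made up 74.2%, 77.8% and 68.7% in Control 1, 2 and 3, and 80.3%, 94.9% and 75.4% in the Celf1cKO libraries in the same order, with Atp2b4 as the remainder. The groups overlapped, and the difference of 9.92 percentage points (exact permutation test, two-sided, p = 0.2, where 3 against 3 libraries cannot give less than 0.1) fell to 4.23 without Celf1cKO 2.

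**Figure D2:**
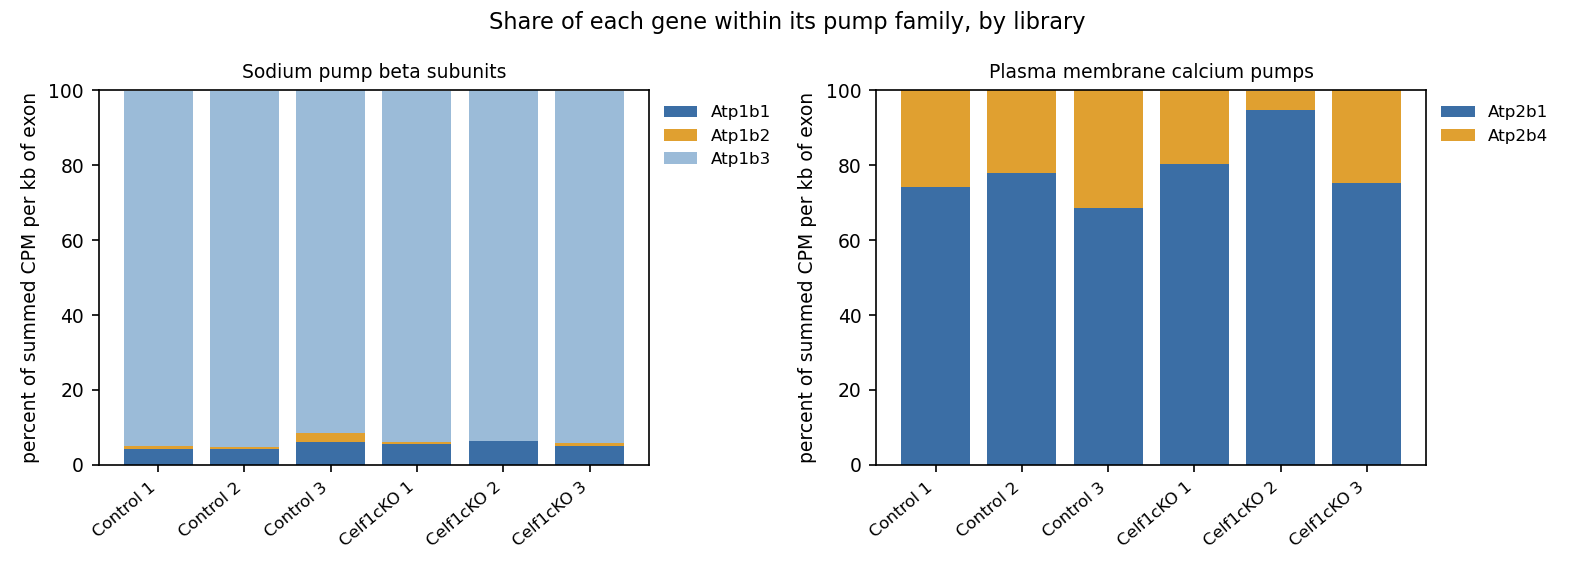
Share of each gene in the summed CPM per kb of exon of its family, in percent, for each of the 6 libraries; bars are stacked to 100%. Atp1b3 fills 91.5% to 95.2% of every beta subunit bar, and Atp2b4 takes 5.13% of the calcium pump bar in Celf1cKO 2 against 19.7% to 31.3% in the other libraries.

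Summed marker levels of cell types also differed among the libraries, and the lists did not all follow the same pattern. Summed over 10 lens epithelium genes, all measured, the level was 730 to 779 CPM in Control and 205 to 607 CPM in Celf1cKO libraries. It was lowest in Celf1cKO 2, where 9 of the 10 genes had their lowest value, and 2 of the 10, Foxe3 and Pdgfra, were called lower. The 8 endothelial genes, all measured, summed to 101 to 126 CPM in Control, to 122 and 58.2 CPM in Celf1cKO 1 and 3 and to 23.5 CPM in Celf1cKO 2, where 8 of the 8 were lowest. The 7 measured of 9 pericyte and mesenchyme genes ran from 70.1 to 94.3 CPM in Control and from 25.3 to 71.5 CPM in Celf1cKO, and 0 of them were called. Rgs5, the highest of them in every library but Celf1cKO 2, had a log2 fold-change of -1.75 (limma adjusted p = 0.175). The median of this list was -0.91, while Acta2 and Des had log2 fold-changes of 0.56 and 0.21. The 7 measured of 12 retinal genes ran from 12.8 to 67.1 CPM in Control and from 28.9 to 63.6 CPM in Celf1cKO libraries. Of the other retinal genes, Crx, Nrl, Opn1sw, Gnat1 and Tubb3, no value was analysed here. The 6 measured of 8 macrophage genes summed to 3.09 to 7.59 CPM in Control and to 4.36 to 7.11 CPM in Celf1cKO, and the 7 pigment cell genes to 36.0 to 53.4 and 26.4 to 47.2 CPM. Of the pigment cell genes 1, Mitf, was called lower, with a log2 fold-change of -0.72 (limma adjusted p = 0.0225). The median log2 fold-change of that list was 0.44, so its sum did not follow most of its genes. The retinal, macrophage and pigment cell lists, Atp1b2 and Atp2b4 each had the highest value of both groups in library 3. Of 10 cornea and skin genes 3 were measured, none of them a keratin, at 22.6 to 24.2 CPM in Control and 30.1 to 34.4 CPM in Celf1cKO. Nearly all of this sum was Perp, with a log2 fold-change of 0.46 (limma adjusted p = 0.0300), short of the threshold. The other measured genes, Col17a1 and Sfn, averaged -0.71 and -1.06 log2 CPM and had log2 fold-changes of 0.13 and -0.60. Of 8 red blood cell genes 1 was measured, Alas2, at 0.0412 to 1.35 CPM. The 13 measured of 14 fiber genes, which define the bulk of the lens, ran from 147843 to 179146 CPM in Control and from 120023 to 128469 CPM in Celf1cKO, with 5 called lower. The part of these cell types in the values of Atp1b2 and Atp2b4 was not tested, and in whole lenses fewer cells of a type and less RNA per cell cannot be told apart.

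**Figure D3:**
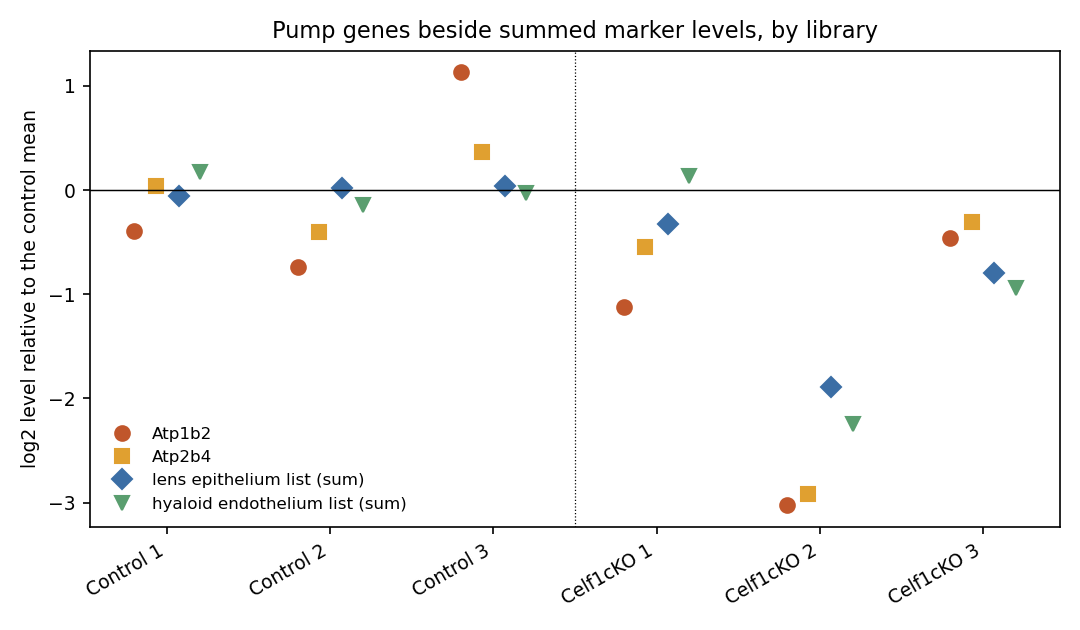
Log2 level of Atp1b2 and Atp2b4 and of the summed CPM of the lens epithelium and hyaloid endothelium marker lists in each library, relative to the mean of the 3 Control libraries, with 1 point per library. All 4 measures are lowest in Celf1cKO 2, where the epithelium list sums to 205 CPM. The retinal and macrophage lists, which are not drawn, were lowest in Control 2.

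The other genes of sodium and calcium handling were grouped in 6 lists of 100 genes, of which 73 were measured and 7 were called, 4 higher and 3 lower. That is 9.59% of those measured, beside 7.39% of all 13931 genes. Both shares count genes at or below an average log2 CPM of 1, which could not be called. The block called the same 7, and total-read scaling called 10, of which 8 were higher and 2 lower.
Of the sodium pump partners (FXYD regulators, Nkain proteins and regulating kinases among them), 0 of 11 measured genes were called by limma, 1 had an unadjusted p under 0.05, and voom called 0. Only 5 of these 11 averaged above log2 CPM 1, as a call requires. Their median log2 fold-change was -0.28, beside -0.04 over all genes. The FXYD regulators Fxyd1, Fxyd5 and Fxyd6 had log2 fold-changes of -0.28, -1.25 and -0.88, with limma adjusted p-values of 0.295 to 0.399.
Of the 6 measured calcium pump partners, the calmodulin gene Calm2 rose, with a log2 fold-change of 0.72 (limma adjusted p = 0.0160), while Calm3, which encodes the identical protein, had one of 0.02 (adjusted p = 0.907). Pcp4, a small calmodulin-binding protein, fell by 0.81 on the log2 scale (limma adjusted p = 0.0183). The accessory subunits of the calcium pumps, basigin (Bsg) and neuroplastin (Nptn), had log2 fold-changes of 0.12 and 0.30 (limma adjusted p = 0.490 and 0.0838).
Calcium is also taken up into the endoplasmic reticulum and exchanged for sodium. The reticulum pump Atp2a2 stood at 8.17, 8.11 and 8.03 log2 CPM in Control 1, 2 and 3, and at 8.38, 8.65 and 8.56 in the Celf1cKO libraries in the same order. Its log2 fold-change of 0.43 (limma adjusted p = 0.0314) was under the fold-change threshold, and with total-read scaling it was 0.65 and called. None of the 5 measured genes in the list of intracellular calcium pumps, 4 pumps and the Golgi transporter Tmem165, was called by limma, 3 had an unadjusted p under 0.05, and voom called 0. Only 3 of these 5 averaged above log2 CPM 1. The log2 ratio of Atp2a2 to the summed plasma membrane calcium pumps, per kb of exon, was 5.48, 5.66 and 5.29 in Control 1, 2 and 3, and 5.90, 6.73 and 6.16 in the Celf1cKO libraries in the same order, a difference of 0.79 without overlap (two-sided p = 0.1 by exact permutation, and 0.3 adjusted over 4 such ratios), and of 0.56 without Celf1cKO 2. The other three ratios, within the 2 pump families, overlapped between groups.
Of 9 sodium-calcium exchangers, of which 6 averaged above log2 CPM 1, 1 rose. It was Slc24a2, a potassium-dependent exchanger, with a log2 fold-change of 1.32 (limma adjusted p = 0.0377). Slc8a1, the main exchanger of heart and many tissues, had a log2 fold-change of 0.21 (limma adjusted p = 0.247). Of 23 sodium-coupled transporters and their kinases, of which 16 averaged above log2 CPM 1, 1 was called. It was Slc9a8, the sodium-proton exchanger of the Golgi, which fell by 0.69 on the log2 scale (limma adjusted p = 0.0261). With total-read scaling the log2 fold-change of Slc9a8 was -0.47, short of the threshold. The list of other P-type ATPases, including the flippase subunit Tmem30a, held 19 measured genes, of which 15 averaged above log2 CPM 1. Of them, the phospholipid flippases Atp8a1 and Atp8b2 rose by 1.54 and 1.19 and Atp13a5 fell by 1.25 on the log2 scale (limma adjusted p from 0.00888 to 0.0193). Leaving out Control 2, or Celf1cKO 3, left 0 of these 7 calls, with 18 and 13 of the 73 genes at an unadjusted p under 0.05 (limma), and 1 called gene among all measured. Leaving out Control 1, Control 3 or Celf1cKO 2 gave 4, 3 and 3 calls among the 73.

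**Figure D4:**
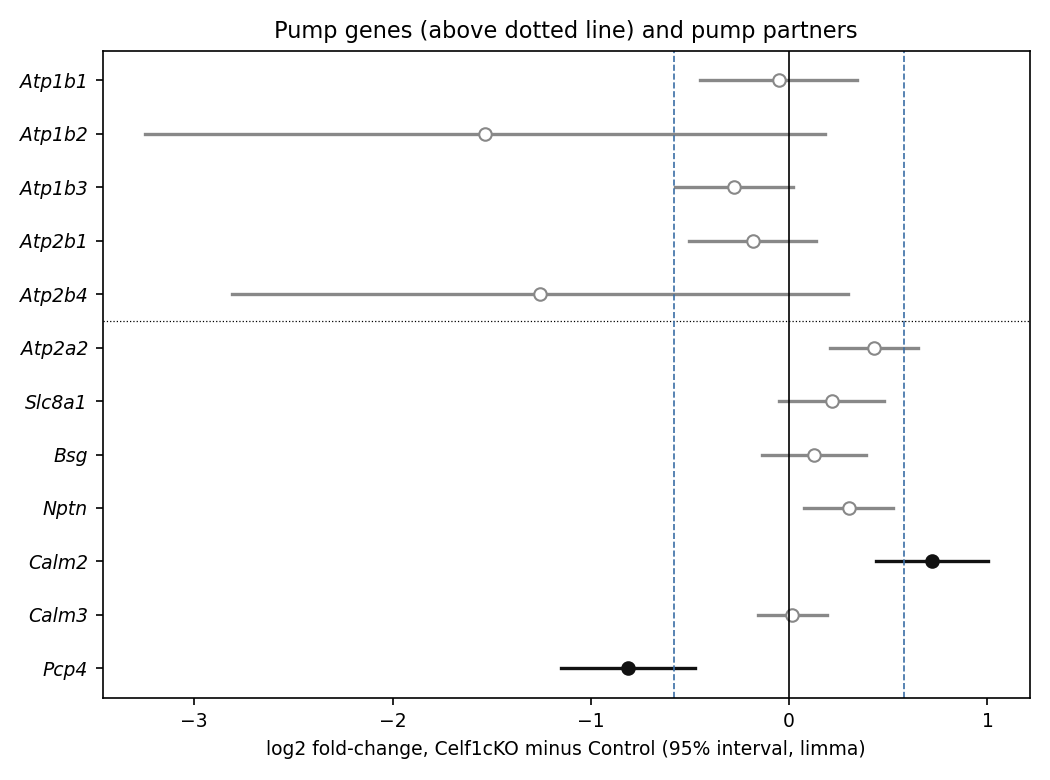
Log2 fold-change, Celf1cKO minus Control, of the 5 measured pump genes (above the dotted line) and of partner genes, with 95% intervals from limma over 6 libraries; filled black points were called, open grey ones were not, and dashed lines mark log2 fold-changes of 0.58 in either direction. The intervals of all 5 pump genes include 0, and those of Atp1b2 (-3.25 to 0.18) and Atp2b4 (-2.81 to 0.30) are the widest of the 5.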

How the data were processed

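RNA-sequencing of 6 lens libraries was analysed. Per the labels and the study's methods, strand-specific paired-end reads were trimmed and aligned to GRCm38.p6 with STAR 2.7.8a, uniquely mapped reads were counted per gene with featureCounts 2.0.0, and genes above a low CPM were kept. The strand setting of the counting is not given in the sources used here. After edgeR normalization the authors deposited log2 CPM values for 13931 genes in each library, with a small prior count. The same table holds their group means, average log2 CPM, fold-changes, F statistics, p-values and FDR. Only the library values and the average log2 CPM were used.

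The deposited log2 CPM values gave whole reads, within 0.05 reads, for 100% of values. The total was 40694454 to 44387151 reads per library, and 3 reads corresponded to 0.0609 to 0.0807 CPM. Intervals on read numbers cover counting error alone.

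Groups were compared with limma 3.58.1 in R 4.3.3 (variance trend, prior degrees of freedom 3.4) and p-values were adjusted by Benjamini-Hochberg over all 13931 genes. A gene was called at adjusted p under 0.05, log2 fold-change beyond 0.58 and average log2 CPM above 1, the thresholds of the study's methods. In simulated data for this comparison with 13931 genes, 99%, 56% and 1% of genes changed by a log2 fold-change of 1 were called at dispersions of 0.01, 0.05 and 0.2, and 93%, 95% and 28% of those changed by 2. Each simulation gave all genes the same dispersion and no shift shared by the genes of a library. Which dispersion holds for the pump genes was not tested, so these rates do not give the power for them. Shares and ratios were compared by exact two-sided permutation over libraries (Python 3.11.15, scipy 1.17.1). Figures were drawn with matplotlib 3.10.9. For 4 symbols with 2 rows of identical library values, the row whose values fitted its own average was kept.

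The labels number the libraries 1 to 3 in each group. Deviations from the group means correlated at 0.26, 0.39 and 0.38 between same-numbered libraries, so the replicate number was also fitted as a block. The study describes no pairing of lenses, so the pairing rests on the shared numbers and on these correlations.

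Members, gene lists and marker lists were chosen with earlier results of these data known. The named genes were the members with every library's value, every called gene and the defining pump genes of the other lists, and the 3 genes that correlated best with each member. Some genes that this rule or the lists would include are not reported here, and the counts for the lists leave them out. Ratios between genes were added after the values had been seen. Gene positions, exon lengths and 3′ UTRs came from GENCODE M21 on GRCm38, which held 13928 of the identifiers and lacked 3. Alternatives were the block, no variance trend, robust moderation, log2(CPM + 1), other scalings, voom on the recovered reads, other thresholds and leaving out each library. Leaving out 2 libraries together was added after seeing the data. No protein sequences were used here.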

Additional observations from a re-analysis of the deposited data

How the results depend on the processing

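None of the 5 pump genes was called under any alternative except the block by replicate number, which called 1, Atp1b2. The block changed no call among the 73 pathway genes. The share of Atp1b3 among beta subunits differed by -0.02 percentage points between groups, by 0.231 without division by length, by 0.212 with coding lengths and by -1.24 to 0.615 with 1 library left out. The log2 fold-change of Atp1b1 was 0.17 with total-read scaling, 0.11 without Control 3 and Celf1cKO 2, and -0.15 to 0.08 with 1 library left out. That of Atp2b1 was 0.042 with total-read scaling. Of all measured genes, 1030 were called, 421 without the variance trend, 1867 with total-read scaling, 1550 without a fold-change threshold, 113 at an adjusted p under 0.01, 11 without Control 3 and Celf1cKO 2, and 1 to 1916 with 1 library left out. Of the pathway genes 7 were called, 3 without the trend, 2 at an adjusted p under 0.01, 0 without Control 3 and Celf1cKO 2 (limma, 13 at an unadjusted p under 0.05) and 0 to 8 with 1 library left out. The causes were not tested. With 1 library left out, a group holds 2. The lowest read numbers of the members were those of Atp1b2 and Atp2b4 in Celf1cKO 2, at 18 and 19.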
